A study of Mus musculus with 12 samples.

Results

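The HSP70 and HSP110 chaperone genes described here are Hspa1a, Hspa1b, Hspa1l, Hspa2, Hspa8, Hspa13 and Hspa14 of the HSP70 family and Hspa4, Hspa4l and Hsph1 of the HSP110 family, 10 of the 24824 genes in the deposited table. They were chosen by gene symbol, after the difference between copper-treated and untreated cells was already known for these genes, so that difference is described below and not tested. The cells were AML12, an immortalised mouse hepatocyte line derived from a mouse carrying a transforming growth factor alpha transgene. All 12 libraries came from wild-type cells and polyadenylated RNA after 24 h, with 3 libraries in each of 4 groups. Group A was untreated. Group B was given CuCl2 at 300 μM with the copper ionophore elesclomol (ES) at 40 nM, together called Cu/ES. Group C was given the same Cu/ES with the conjugated bile acid taurocholic acid (TCA) at 1000 μM, and group D was given TCA alone at 1000 μM. Comparing C with D therefore gives the difference that goes with Cu/ES in libraries that B and A do not share, comparing D with A gives that of TCA alone, and comparing C with B gives that of TCA added to Cu/ES.

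HSP70 proteins are ATP-driven chaperones that bind short hydrophobic stretches of unfolded polypeptides and release them for folding, refolding or degradation. J-proteins (the DNAJ or HSP40 families) deliver substrates and start ATP hydrolysis, and nucleotide exchange factors, among them the BAG proteins and the HSP110 proteins, reopen the chaperone by exchanging ADP for ATP. In mammalian cells Hspa8 (HSC70) is the constitutive cytosolic form, whereas Hspa1a and Hspa1b encode nearly identical HSP70 proteins that are low at rest and are transcribed by heat shock factor 1 when unfolded proteins accumulate. Heat shock factor 1 binds heat shock elements, which are inverted repeats of the unit GAA with spacers.

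The promoters of Hspa1a, Hspa1b and Hsph1, which moved most, and of Hspa4 are shown because of this textbook route of induction. The difference of Hspa4 between C and D did not pass the test, but its direction and call changed with scaling, as given below. RefSeq promoter windows (GRCm38.p6, 250 bases before to 50 after a start) matched 8 of the 10 genes by symbol, not Hspa8 or Hspa13. The sequences are the 250 bases before the start, written 5′ to 3′ along the gene, and capitals mark a 2-unit heat shock element, spelled GAANNTTC or TTCNNGAA and searched on both strands. The windows lie on the minus strand at chr17:34972157-34972406 for Hspa1a, chr17:34959239-34959488 for Hspa1b, chr5:149636337-149636586 for Hsph1 and chr11:53300480-53300729 for Hspa4.
Hspa1a: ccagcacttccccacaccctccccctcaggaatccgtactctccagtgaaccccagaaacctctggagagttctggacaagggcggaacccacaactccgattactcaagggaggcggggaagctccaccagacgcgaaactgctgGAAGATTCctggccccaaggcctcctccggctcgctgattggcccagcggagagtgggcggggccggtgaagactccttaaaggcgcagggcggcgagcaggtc
Hspa1b: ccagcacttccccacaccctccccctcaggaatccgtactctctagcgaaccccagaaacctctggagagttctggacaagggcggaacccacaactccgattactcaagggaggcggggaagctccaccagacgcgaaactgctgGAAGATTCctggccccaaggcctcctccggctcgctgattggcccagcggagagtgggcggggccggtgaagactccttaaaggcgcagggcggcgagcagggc
Hsph1: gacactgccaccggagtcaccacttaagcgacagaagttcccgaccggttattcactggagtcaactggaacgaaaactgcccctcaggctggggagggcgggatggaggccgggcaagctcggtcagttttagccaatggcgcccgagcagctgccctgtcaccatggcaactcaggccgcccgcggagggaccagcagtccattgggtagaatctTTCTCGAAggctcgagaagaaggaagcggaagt
Hspa4: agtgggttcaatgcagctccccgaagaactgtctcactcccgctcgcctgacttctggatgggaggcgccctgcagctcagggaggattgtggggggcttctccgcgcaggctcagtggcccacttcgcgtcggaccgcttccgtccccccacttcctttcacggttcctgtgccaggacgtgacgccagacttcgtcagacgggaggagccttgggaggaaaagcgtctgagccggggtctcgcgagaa
The windows of Hspa1a and Hspa1b differed at 3 of 250 bases and were 98.8% identical. Both held GAAGATTC, starting 104 bases before the start. Hsph1 held TTCTCGAA 33 bases before its first start and, 36 bases after it, the 3-unit run TTCTGGAAAGTTC, which contains 2 overlapping 2-unit matches. No match was found in the windows of Hspa4, Hspa1l, Hspa2, Hspa14 or Hspa4l. Of all 32817 promoter windows of 300 bases, 15.1% held a 2-unit match and 0.603% a 3-unit match. A match describes letters in the window and was not tied to any measurement of binding here.

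Values are FPKM, fragments scaled by gene length and by the number of counted reads, so levels can be compared between genes. The spacing of the FPKM values allowed the whole reads behind them to be recovered, with totals of 38298857 to 39108519 reads per library in group A, 30773752 to 32002324 in B, 29115011 to 34912748 in C and 39444420 to 39782142 in D. Between 10805 and 10893 genes reached 1 FPKM in the libraries of group A and 10570 to 10664 in D, against 8458 to 8576 in B and 8490 to 8711 in C. Of the hepatocyte markers examined, Krt8 and Krt18 were expressed, while Alb, Hnf4a and Cps1 were at or near 0 in every library, Apoa1 did not exceed 2.44 FPKM and Ttr was not analysed here. Of this list only the keratins were thus well expressed. In group A, Krt19 of a cholangiocyte list and Vim of a fibroblast list also averaged 267.7 and 2079.9 FPKM. These markers therefore do not settle the cell type. As the RNA is from whole cultures, fewer cells of a type and less RNA per cell cannot be told apart. Nothing in the labels says that the 3 libraries of a group came from separate cultures, so the p-values measure the spread between these libraries, which may be technical.

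**Figure D1:**
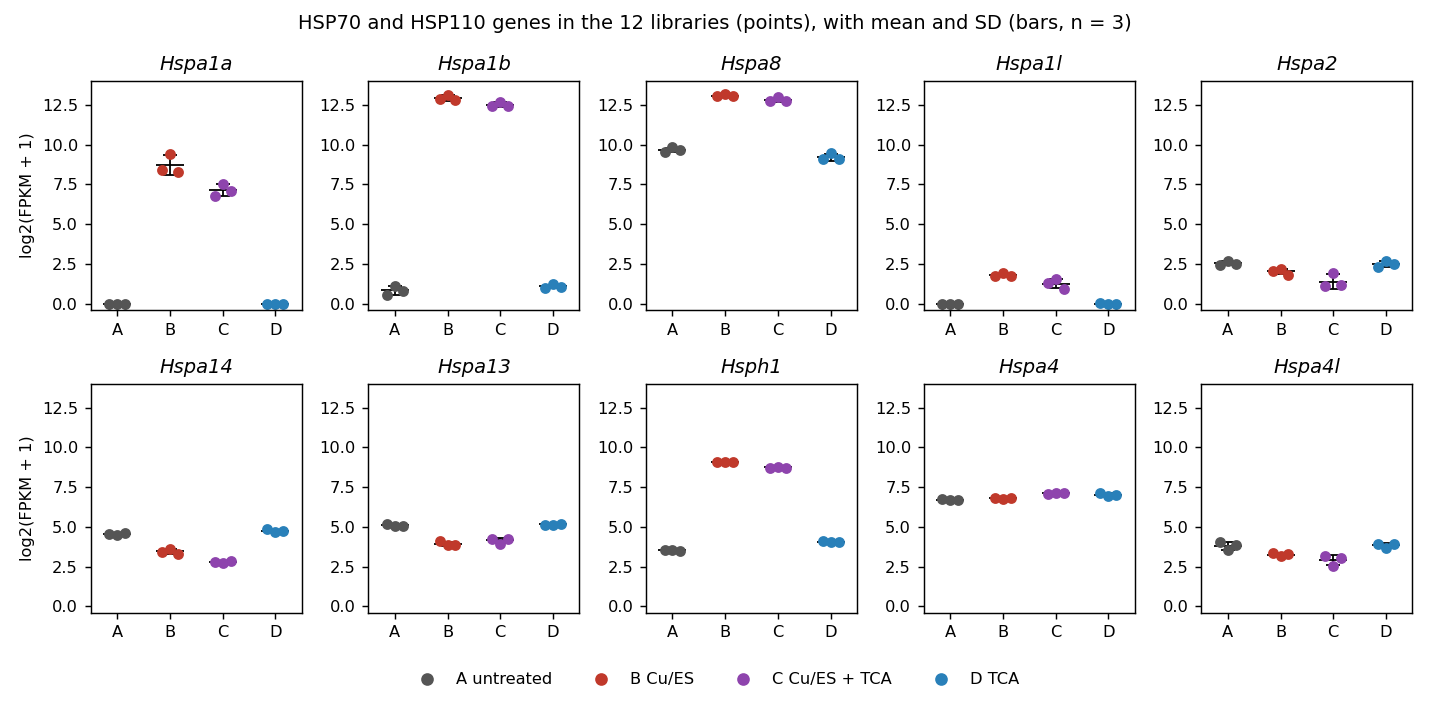
Level of each of the 10 genes as log2(FPKM + 1) in the 12 libraries, by group (A untreated, B Cu/ES, C Cu/ES with TCA, D TCA); points are libraries, bars the mean and SD of 3. Hspa1a, Hspa1b, Hspa8, Hspa1l and Hsph1 stood higher in every library of B and C than in any of A and D. Hspa1l stayed low, at means of 2.52 and 1.44 FPKM in B and C. The other genes differed less between groups than Hspa1a, Hspa1b, Hspa8 and Hsph1.

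Cu/ES went with a large gain of the chaperone transcripts as a whole. The 10 genes took 0.263% ± 0.0126 (SD, n = 3) of all counted reads in group A, 4.58% ± 0.408 in B, 3.56% ± 0.339 in C and 0.232% ± 0.0147 in D. The gain came from 4 genes, Hspa1a, Hspa1b, Hspa8 and Hsph1, which alone made up 4.51% ± 0.409 of the reads in B. In group B, Hspa8 was the gene with the third highest mean FPKM of the whole table and Hspa1b the fifth, whereas in A they were at rank 58 and rank 11098.

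Hspa1b, an inducible HSP70 gene, was nearly silent without Cu/ES. Its FPKM was 0.492, 1.21 and 0.746 in the libraries of group A, from 53, 132 and 82 reads, and 0.993, 1.34 and 1.05 in group D. In group B it was 7327, 8946 and 7252, and in group C 5443, 6556 and 5453. The libraries with Cu/ES thus all lay far above those without, and the lowest value of B exceeded the highest of C. The ratio of mean FPKM was 9619 for B over A (7842 ± 957 against 0.815 ± 0.362). For C over D it was 5148 (5818 ± 640 against 1.13 ± 0.188). Hspa1b averaged 1 FPKM over the libraries, the level required for testing, only through the groups with Cu/ES, so its difference with Cu/ES is given without a test (log2 difference of FPKM + 1 between C and D 11.41).

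Hspa1a, the other inducible gene, was not detected in untreated cells. No read was counted in any library of group A, and 1 read in total in group D. Group B had 338, 682 and 308 FPKM and group C had 108, 185 and 138. Every library of B lay above every library of C, and replicate 2 of B stood far above the other two. Over the 3 libraries, 117595 reads in B against 0 in A put Hspa1a at least 48266-fold higher, with 3 reads over the group taken as the limit that a count of 0 allows. The 39348 reads in C against 1 in D gave a ratio of 48514.6 (95% counting interval 8706.9 to 1916273.7, counting error only). Hspa1a also reached the level required for testing only through the groups with Cu/ES, and no test of its difference with Cu/ES is given; the fitted log2 difference between C and D, 7.14, depends on the pseudocount and is no bound.

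The split between Hspa1a and Hspa1b is uncertain, since their transcripts share sequence. Of the 100-base windows of the Hspa1a transcript (GENCODE, GRCm38), 47.1% also occur in that of Hspa1b and 4.67% in that of Hspa1l, and none in that of Hspa8. Taken as deposited, Hspa1a made up 4.41%, 7.09% and 4.07% of the summed FPKM of the pair in the libraries of B and 1.94%, 2.75% and 2.47% in those of C. These groups did not overlap (two-sided exact permutation test p = 0.1, the smallest that 3 libraries against 3 allow), in a comparison chosen after the values were seen.

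Hspa8, the constitutive HSC70 that folds new proteins and uncoats clathrin, was abundant in every library and rose as well. In the untreated libraries it measured 758, 907 and 804 FPKM, against 539, 698 and 544 with TCA alone. With Cu/ES it stood at 8495, 9168 and 8560 in B and at 6909, 8080 and 6871 in C. The lowest library with Cu/ES, at 6871 FPKM, lay far above the highest without, at 907. The ratio of means was 10.6 for B over A and 12.3 for C over D, and between C and D Hspa8 rose by 3.62 on the log2(FPKM + 1) scale (SE 0.10, adjusted p = 3.72e-13, limma).

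**Figure D2:**
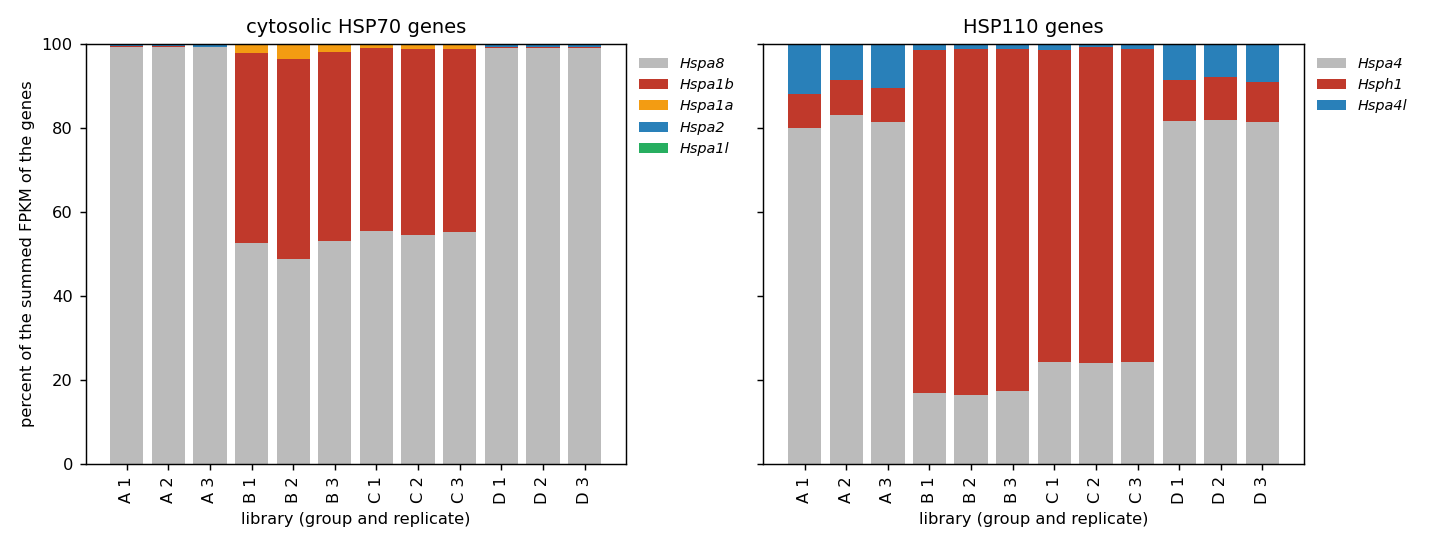
Share of each gene in the summed FPKM of the cytosolic HSP70 genes (left) and of the HSP110 genes (right), in percent, for each of the 12 libraries. Hspa8 and Hspa4 fill most of the bars of A and D; in B and C the inducible genes take 48.5% and 45.0% of the HSP70 sum and Hsph1 takes 81.9% and 74.8% of the HSP110 sum on average.

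Set against each other within a library, a measure that does not depend on how libraries are scaled, the inducible genes gained on the constitutive gene. Hspa1a and Hspa1b together were 0.0963% ± 0.0340 of the summed FPKM of the cytosolic HSP70 genes (Hspa1a, Hspa1b, Hspa1l, Hspa2 and Hspa8) in group A and 48.5% ± 2.36 in B. They were 45.0% ± 0.474 in C and 0.189% ± 0.00402 in D, a difference of 44.8 percentage points between C and D. The share was 3.55 points lower in C than in B and 0.0926 points higher in D than in A. Hspa1b itself overlapped between D and A, while Hspa8, in the denominator, averaged 594 FPKM in D against 823 in A. Without replicate 2 of B the difference between C and B was -2.19 points. The difference between C and D is given without a test, as Hspa1a and Hspa1b reached the level required for testing only through the groups with Cu/ES. In the comparisons of C with B and D with A the groups did not overlap. Each gave p = 0.1 in the two-sided exact permutation test, which cannot go lower with 3 libraries against 3.

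Hspa1l and Hspa2 are HSP70 genes known mainly from the testis. Hspa1l had no read in group A and 2 in D, against 185, 213 and 177 reads in B (2.52 ± 0.207 FPKM) and 104, 161 and 73 in C (1.44 ± 0.488 FPKM). That put it at least 236-fold higher in B than in A, and 338 reads in C against 2 in D gave a ratio of 208 (95% counting interval 57.2 to 1728). Its mean over the libraries was below 1 FPKM, so it was the single member not tested. Hspa1l starts next to Hspa1a on the opposite strand, and by their promoter windows both genes run away from each other. Its window lies on the plus strand at chr17:34972453-34972702. Its reads came to between 0.349% and 1.19% of those of Hspa1a. Whether reads were counted by strand is not given in the sources used here. Since 4.67% of the 100-base windows of the Hspa1a transcript also occur in that of Hspa1l, some reads may belong to either gene, which was not tested. Hspa2 was low throughout, at 4.39, 5.46 and 4.78 FPKM in A, 3.26, 3.53 and 2.58 in B, 1.13, 2.78 and 1.29 in C and 3.96, 5.34 and 4.67 in D. The libraries of B and C lay below those of A and D. Between C and D Hspa2 fell by 1.09 on the log2 scale (SE 0.18, adjusted p = 4.88e-05), a fall that no longer passed under median-ratio scaling (-0.18, adjusted p = 0.434) and turned to 0.26 under quantile normalization (adjusted p = 0.203).

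The ribosome-linked and microsomal members were lower with Cu/ES. Hspa14, a ribosome-linked HSP70, had 22.9, 21.9 and 23.9 FPKM in A and 27.6, 24.7 and 25.8 in D, but 9.85, 11.4 and 8.94 in B and 6.04, 5.53 and 6.10 in C. Each step from D to A to B to C was free of overlap between libraries. Its fall between C and D was 1.97 on the log2 scale (SE 0.08, adjusted p = 1.55e-11) and passed the adjusted p in all 21 alternative settings, shrinking to -0.82 under median-ratio scaling. Hspa13, a microsomal HSP70, stood at 32.3 to 34.5 FPKM in A and 33.8 to 35.7 in D, against 13.6 to 16.0 in B and 14.4 to 18.2 in C, so that A and D overlapped, as did B and C. It fell by 1.01 between C and D (adjusted p = 4.93e-08), just past the fold threshold, and turned to 0.20 under median-ratio scaling (adjusted p = 0.0233).

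The HSP110 genes differed among themselves. Hsph1 (HSP105), the inducible form, measured 10.7, 10.5 and 10.2 FPKM in the untreated libraries, against 532, 545 and 534 with Cu/ES. TCA alone gave 16.2, 15.6 and 15.3, and Cu/ES with TCA 419, 436 and 419. No group overlapped another, and the libraries within a group differed by little. The ratio of means was 51.3 for B over A and 27.1 for C over D, and the log2 fold change between C and D was 4.67 (SE 0.05, adjusted p = 4.13e-16). Hspa4 (APG-2), a constitutive form, was at 102 to 105 FPKM in A, 109 to 113 in B, 136 to 138 in C and 123 to 136 in D, with C and D overlapping. Its log2 difference between C and D was 0.08 (95% interval -0.05 to 0.21, adjusted p = 0.179). On other scales that difference was -0.21 (TPM, adjusted p = 0.00246), -0.14 (quantile, adjusted p = 0.0194) and 1.33 (median-ratio, adjusted p = 1.77e-10), so neither its direction nor its call was fixed. Hspa4l, known from the testis, was at 10.5 to 15.5 FPKM in A, 7.89 to 9.03 in B, 4.87 to 7.98 in C and 11.7 to 14.4 in D. It fell by 0.94 between C and D (adjusted p = 4.39e-05), short of the fold threshold, and turned to 0.19 and 0.21 under median-ratio and quantile scaling.

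Within the HSP110 genes the share of Hsph1 in the summed FPKM was 8.25% in A, 81.9% in B, 74.8% in C and 9.89% in D. The difference was 64.9 points between C and D, -7.09 between C and B and 1.65 between D and A, each without overlap (two-sided exact permutation test p = 0.1). The summed FPKM of the HSP110 genes went from 126.9 in A to 656.0 in B, and that of the cytosolic HSP70 genes from 828.8 to 17031.6.

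**Figure D3:**
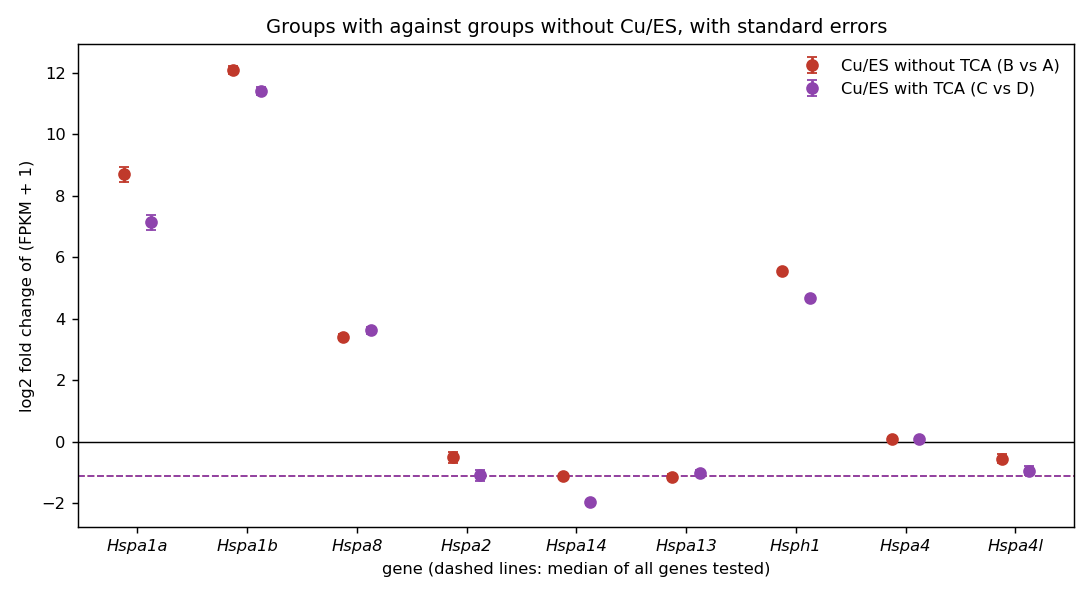
Log2 fold change of FPKM + 1 with its standard error for the 9 genes tested, groups B vs. A and C vs. D; dashed lines are the medians of all genes tested, -1.10 and -1.12. Hspa1b, Hspa1a, Hsph1 and Hspa8 lie far above 0 in both comparisons, and Hspa14, Hspa13, Hspa2 and Hspa4l lie nearer the dashed lines.

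Most genes of the table were lower with Cu/ES on the FPKM scale, and the members are read against that. Between C and D, 4 members were higher and 3 lower past both thresholds (adjusted p below 0.05 and absolute log2 fold change above 1) of 9 tested, beside 11.2% of all 10615 genes tested that were higher and 53.3% lower. Hspa1a and Hspa1b entered the test only through their values with Cu/ES and so had to be higher. Of the 7 other members tested, 2 rose (Hspa8 and Hsph1) and 3 fell (Hspa2, Hspa13 and Hspa14). Over all genes the log2 fold change had a median of -1.12. In the comparison of B with A, which the choice of the genes used, 4 members were higher and 2 lower by more than 1 on the log2 scale, and 10.1% of all genes were called higher and 53.0% lower. There the log2 differences were 12.09 for Hspa1b, 8.70 for Hspa1a, 5.55 for Hsph1, 3.41 for Hspa8, 0.10 for Hspa4, -0.51 for Hspa2, -0.55 for Hspa4l, -1.12 for Hspa14 and -1.14 for Hspa13. The last 2 lie close to the median of all genes, -1.10. Scaling by median ratios or quantiles brought the median of all genes near 0 (-0.11 and -0.12 between C and D), and the members then counted 5 higher and 0 lower (median-ratio) or 4 higher and 0 lower (quantile), with 25.9% and 21.4% of all genes higher and 27.2% and 23.1% lower. Under TPM scaling they counted 4 higher and 4 lower, with 9.28% and 61.8% of all genes. All these counts include Hspa1a and Hspa1b. Between B and A they counted 5 higher and 0 lower (median-ratio) and 4 higher and 0 lower (quantile), with 25.9% and 20.7% of all genes higher and 25.5% and 22.2% lower. The rises of Hspa8 and Hsph1 between C and D kept their direction and an adjusted p below 0.05 in all 21 settings tried. None of the 3 falls was past the fold threshold under median-ratio or quantile scaling (for Hspa14 -0.82 and -0.99).

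TCA alone moved few of these genes and by little. Between D and A, 0 of the 9 members tested passed both thresholds by limma, beside 0.0659% of all genes higher and 0.151% lower. By adjusted p alone 3 members passed, and 22.0% of all genes did. At an unadjusted p below 0.05 there were 2 higher and 1 lower, beside 35.8% of all genes in either direction. Limma-voom on recovered reads likewise put 0 members past both thresholds, beside 0.339% of all genes higher and 0.641% lower. Hsph1 rose by 0.54 on the log2 scale (SE 0.05, adjusted p = 5.86e-05), from 10.5 ± 0.292 to 15.7 ± 0.472 FPKM, and Hspa4 rose by 0.32 (adjusted p = 0.00149), while Hspa8 fell by 0.48 (adjusted p = 0.00621), from 823 ± 76.1 to 594 ± 90.8. All 3 kept direction and an adjusted p below 0.05 in the 21 settings. Hspa1b differed by 0.25 (adjusted p = 0.199) with overlapping libraries, by 0.40 without replicate 2 of A (adjusted p = 0.0353) and by 0.11 without replicate 1 of A (adjusted p = 0.608). Reads of Hspa1a and Hspa1l stayed at 0 to 2 per library. The comparison shares the libraries of A with the comparison of B with A.

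**Figure D4:**
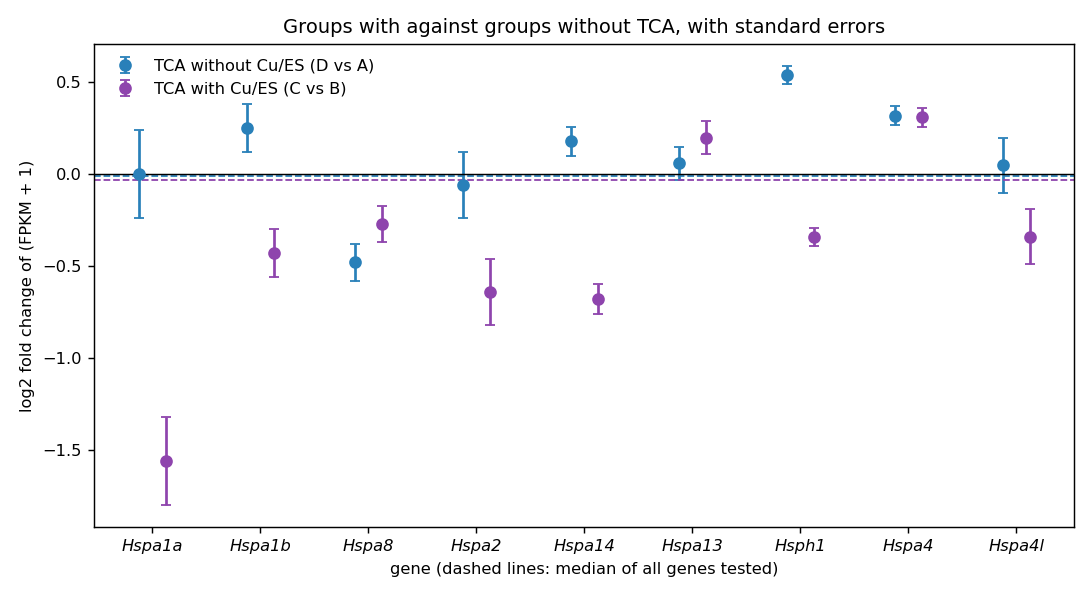
Log2 fold change of FPKM + 1 with its standard error for TCA without Cu/ES (D vs. A) and with Cu/ES (C vs. B), 9 genes; dashed lines are the medians of all genes tested, -0.01 and -0.03. Hspa1a has the lowest value with Cu/ES, -1.56, and Hsph1 is at 0.54 without and -0.34 with Cu/ES.

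Added to Cu/ES, TCA went with a lower level of Hspa1a and with smaller differences of other members. Past both thresholds 0 members rose and 1 fell between C and B, beside 1.13% and 1.16% of all genes, and by adjusted p alone 1 rose and 5 fell, beside 44.0% of all genes in either direction. At an unadjusted p below 0.05 the counts were 2 and 7, beside 51.0% of all genes. Limma-voom on recovered reads gave 0 and 1 past both thresholds, beside 3.22% and 4.13% of all genes. The member past both was Hspa1a, which fell by 1.56 (SE 0.24, adjusted p = 1.65e-04), from 443 ± 208 to 144 ± 39.2 FPKM. Its fall was -1.20 without replicate 2 of B, and the adjusted p ranged from 6.77e-05 to 0.00292 over the settings tried. Hsph1 fell by 0.34 (SE 0.05, adjusted p = 1.91e-04) and Hspa14 by 0.68 (SE 0.08, adjusted p = 3.32e-05), both in all 21 settings. Hspa1b fell by 0.43 (SE 0.13, adjusted p = 0.0166), from 7842 to 5818 FPKM, and was no longer below an adjusted p of 0.05 in 7 of 21 settings, among them without replicate 2 of B (adjusted p = 0.0795), without replicate 1 of C (0.0585) and without replicate 3 of C (0.0629). Hspa2 fell by 0.64 (adjusted p = 0.0116), which missed 0.05 without a filter on low values (0.0532), without replicate 1 of C (0.0572) and without replicate 3 of C (0.0547). Hspa8 differed by -0.27 (adjusted p = 0.0544) although its libraries did not overlap, and passed 0.05 in 5 of 21 settings, among them without replicate 2 of C (0.0162), without replicate 2 of D (0.0229) and with limma-voom on recovered reads (0.0247). Hspa4 rose by 0.31 (adjusted p = 5.38e-04), close to its 0.32 without Cu/ES. Hspa13 (0.20, adjusted p = 0.0836) and Hspa4l (-0.34, adjusted p = 0.0907) did not pass, though Hspa13 did without replicate 1 of B (0.0373) or replicate 2 of C (0.00475) and Hspa4l without replicate 1 of C (0.0339). The libraries of B are shared with the comparison of B with A.

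Whether the difference that went with TCA depended on Cu/ES was tested as the interaction, (C minus B) minus (D minus A). Past both thresholds 0 members were above 0 and 1 below it, beside 1.75% and 1.73% of all genes, and by adjusted p alone 4 of 9 passed, all below 0, beside 37.5% of all genes in either direction. At an unadjusted p below 0.05, 0 lay above and 5 below, beside 46.8% of all genes. Limma-voom on recovered reads put 0 members past both thresholds in either direction, beside 4.10% of all genes above and 4.14% below. Hsph1 had the lowest adjusted p, with an interaction of -0.88 (adjusted p = 8.39e-06), having risen with TCA alone and fallen with TCA added to Cu/ES. Hspa14 followed with -0.85 (adjusted p = 1.75e-04). Both passed in all 21 settings. Hspa1a (-1.56, adjusted p = 0.00306) and Hspa1b (-0.68, adjusted p = 0.0118) passed as well, but both entered the test only through their values with Cu/ES. Both lay near 0 FPKM in A and D, where the pseudocount of 1 compresses differences, so the value of Hspa1a equals its difference between C and B, -1.56. With limma-voom on recovered reads neither passed (-2.06, adjusted p = 0.686, and -0.98, adjusted p = 0.124), and without a filter on low values Hspa1b did not (adjusted p = 0.0531). Hspa8 (0.21, adjusted p = 0.283), Hspa4 (-0.02, adjusted p = 0.894) and Hspa13 (0.14, adjusted p = 0.406) did not pass. Hspa4l (-0.39, adjusted p = 0.174) and Hspa2 (-0.58, adjusted p = 0.0932) did not either, though Hspa2 passed without replicate 2 of C (-0.84, adjusted p = 0.00179).

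The proteins that work with HSP70 moved in both directions. Of 30 partner genes listed, 29 were tested, and between C and D 10 rose and 7 fell past both thresholds. Among those that fell, Bag5, Hspa12b, Sil1 and Dnajb5 reached the level required for testing only through the groups without Cu/ES. They therefore had to be lower, and the counts given here include them. The shares of all genes are 11.2% and 53.3%, as above. The median was -0.09 for the partners against -1.12 for all genes. Under median-ratio scaling the partners counted 14 higher and 4 lower, under quantile normalization 11 and 4, and under TPM 6 and 9. The shares of all genes higher and lower were then 25.9% and 27.2%, 21.4% and 23.1%, and 9.28% and 61.8%. Of the 9 J-proteins, 4 rose and 1 fell, and of the 7 nucleotide exchange factors or regulators 2 rose and 3 fell. Both adaptors, Stip1 and St13, rose and the ubiquitin ligase Stub1 (CHIP) fell, named here to complete a count of 3. Stub1 was at -1.25, close to the median of all genes, -1.12. Among Hsf1, Hsf2 and the heat shock factor binding protein Hsbp1 none passed both thresholds, and of 7 genes of the endoplasmic reticulum, mitochondria and HSPA12 branch 2 rose and 2 fell.

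**Figure D5:**
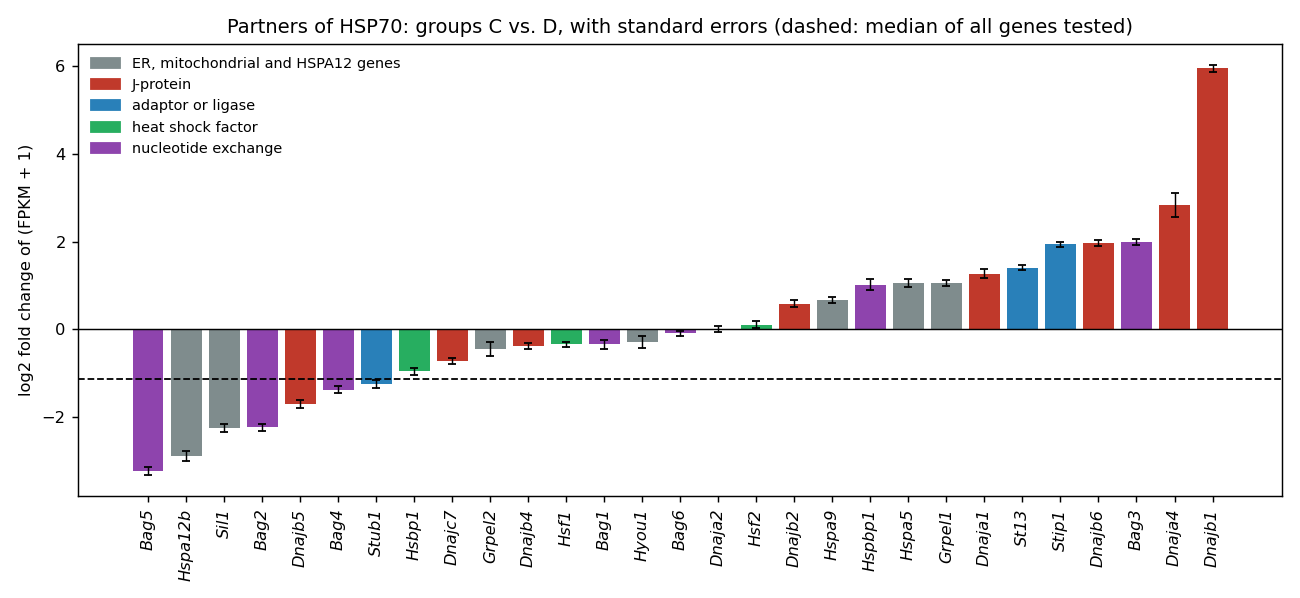
Log2 fold change of FPKM + 1 between groups C and D with its standard error for 29 partner genes of HSP70, coloured by role; the dashed line is the median of all genes tested, -1.12. On this scale Dnajb1 is highest at 5.95 and Bag5 lowest at -3.23. With a pseudocount of 0.1 Hspa12b lies below Bag5.

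Dnajb1 (HSP40), the J-protein induced with HSP70 in the heat shock response, went from 12.8 ± 0.532 FPKM in A to 1622 ± 158 in B, and from 14.2 ± 1.12 in D to 942 ± 112 in C, a log2 fold change of 5.95 between C and D (SE 0.09, adjusted p = 5.73e-15). Dnaja4 rose by 2.84 (adjusted p = 2.27e-07) and Dnajb6, which holds back aggregation, by 1.97 (adjusted p = 4.08e-13). Bag3, which steers HSP70 clients to autophagy, rose by 1.99 (adjusted p = 1.31e-12), from 46.1 ± 2.35 in D to 185.8 ± 3.34 FPKM in C, and Stip1 (HOP), which links HSP70 to HSP90, by 1.94 (adjusted p = 3.74e-13). The exchange factors Bag5 and Bag2 fell by 3.23 and 2.23 (adjusted p = 4.29e-13 and 2.58e-12). Hspa12b fell by 2.88 (adjusted p = 5.53e-12), Sil1, the exchange factor for the endoplasmic reticulum HSP70, fell by 2.25 (adjusted p = 5.94e-12), and Dnajb5 by 1.70 (adjusted p = 6.04e-10). Under quantile normalization Sil1 was at -0.93 and Dnajb5 at -0.37, and under median-ratio scaling Dnajb5 was at -0.93, all short of the fold threshold. The 10 genes from Dnajb1 to Dnajb5 were named from those called without overlap between C and D, so their lack of overlap is no result. Hspa5 (BiP) of the endoplasmic reticulum rose by 1.05 (adjusted p = 6.61e-08), but by 0.22 under quantile normalization and 0.76 under TPM, short of the fold threshold. Hspa9 (mortalin) of mitochondria rose by 0.67 (adjusted p = 3.05e-07), which no longer passed under quantile normalization (0.06, adjusted p = 0.359). Hsf1 itself differed by -0.34 (adjusted p = 1.73e-04), which turned to 0.87 and 0.39 under median-ratio and quantile scaling, at 19.0, 18.1, 19.6 and 25.1 FPKM in A, B, C and D. Hsf2 stayed between means of 2.20 and 2.45 FPKM, with a log2 difference of 0.11 between C and D (adjusted p = 0.194).

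Over the 12 libraries, the genes whose log2(FPKM + 1) followed the sum of Hspa1a and Hspa1b most closely were Taf7, Bag3, Gm53794, Cwc25 and Slu7, with Pearson r from 0.9989 to 0.9993. Mean FPKM of Taf7, a subunit of the general transcription factor TFIID, was 2.31, 64.3, 55.2 and 2.35 in A, B, C and D. For Hspa8 they were Dpp7, Hat1, St13, Eif3h and Gadd45g, with r from 0.9956 to 0.9989, among them St13 (HIP), which binds HSP70. The r values describe profiles that share the same 4 groups: 220 of 10606 genes had r above 0.99 with the inducible pair and 60 with Hspa8.

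Marker lists of the labelled and of other cell types were summed as well. The summed FPKM of 6 hepatocyte markers ranged from 596.2 to 649.3 in A, 235.6 to 286.9 in B, 172.2 to 207.7 in C and 697.1 to 716.9 in D. For 4 fibroblast markers (Col1a1, Col3a1, Vim and Acta2, the last near 0 in every library) the ranges were 2110.2 to 2326.1, 297.9 to 353.3, 153.9 to 195.4 and 1806.2 to 1927.6. For 4 cholangiocyte markers they were 230.5 to 325.8, 111.3 to 139.9, 130.5 to 136.3 and 157.9 to 245.5, with Krt7 and Epcam near 0. Most of that sum was Krt19 (means of 267.7, 77.3, 80.8 and 203.4), while Sox9 was higher with Cu/ES (10.6, 50.9, 52.4 and 8.50). For 4 macrophage markers they were 72.5 to 102.4, 24.6 to 29.1, 24.1 to 36.8 and 25.5 to 37.0, nearly all from Cd68, with Adgre1, Csf1r and Ptprc at or near 0. The sums of the hepatocyte, fibroblast and cholangiocyte lists were lower with Cu/ES in both comparisons, B with A and C with D, and that of the macrophage list overlapped between C and D. Their part in the chaperone differences was not tested.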

How the data were processed

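Gene expression was measured by RNA-seq of polyadenylated RNA in 12 libraries of AML12 cells, 3 in each of 4 groups taken from the sample labels. The authors deposited FPKM values in a single table of 24824 genes, and all of its columns of per-sample values were used (columns left unused: 0). The submitters' processing notes name fastp, HISAT2, HTSeq and GRCm39; versions, read length and the strand setting are not given in the sources used here. Gene names follow the table.

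From the deposited FPKM, log2(FPKM + 1) was computed and the 10615 genes whose FPKM averaged 1 or more were fitted with limma 3.58.1 in R 4.3.3 (4 groups, 12 libraries, empirical Bayes with trend, 8 residual degrees of freedom, two-sided p, Benjamini-Hochberg over all genes tested). A call required an adjusted p below 0.05 together with a log2 fold change beyond 1 in either direction. Steps between low FPKM values gave back whole reads, gene lengths and library totals, within 0.01 of a whole number for 22196 of 22212 genes. Reads and intervals cover counting error only. Shares within a library were compared by exact permutation tests, except the inducible share between groups with and without Cu/ES and all shares between B and A. The fit was tested on simulated data.

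The members and lists were chosen with earlier results of these data known. Named were all 10 members; of the partners, the 5 largest rises and 5 largest falls between C and D among those called without overlap, with Hsf1, Hsf2, Hspa5 and Hspa9; and the 5 genes most correlated with the inducible pair and with Hspa8. Promoter windows came from RefSeq GRCm38.p6 and transcripts from GENCODE GRCm38, a build other than that of the deposited table. Alternatives were a pseudocount of 0.1, no filter or a mean FPKM of at least 5, TPM, median-ratio and quantile scaling, no trend, a replicate block, limma-voom on recovered reads, and each library left out.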

Additional observations from a re-analysis of the deposited data

Results flagged for a closer look

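The difference that went with TCA passed the test of dependence on Cu/ES for 4 of the 9 chaperone genes tested, beside 37.5% of all genes, a share near that of the members, by limma's interaction test with Benjamini-Hochberg adjustment over 10615 genes. Of the 4, Hspa1a and Hspa1b entered the test only through their values with Cu/ES, so the count rests in part on that choice. On the log2(FPKM + 1) scale the interaction was -1.56 for Hspa1a (adjusted p = 0.00306), -0.68 for Hspa1b (0.0118), -0.85 for Hspa14 (1.75e-04) and -0.88 for Hsph1 (8.39e-06). Between C and B the log2 differences were -1.56 for Hspa1a, -0.43 for Hspa1b, -0.68 for Hspa14 and -0.34 for Hsph1. The interaction uses these same libraries. Hsph1 and Hspa14 lay higher in D than in A without overlap, whereas Hspa1a and Hspa1b were close to 0 FPKM in both. With limma-voom on recovered reads neither of these passed (adjusted p = 0.686 and 0.124).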

How the results depend on the processing

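Values were recomputed under 21 settings beside the one reported. Members past both thresholds between C and D were 7, and 4 under quantile normalization, and 6 to 8 with single libraries left out. For the interaction, limma-voom on recovered reads gave 0 members in place of 1. Scaling turned several small differences, and the cause was not tested: between B and A, Hspa14 to 0.09, Hspa13 to 0.08, Hspa2 to 0.50 and Hspa4l to 0.63 (median-ratio), Hspa2 to 0.88, Hspa4l to 0.56 and Hspa4 to -0.11 (quantile) and Hspa4 to -0.27 (TPM); between C and D, Hspa13 to 0.20, Hspa4l to 0.19 and Hsf1 to 0.87 (median-ratio), Hspa2 to 0.26, Hspa4 to -0.14, Hspa4l to 0.21 and Hsf1 to 0.39 (quantile), and Hspa4 to -0.21 and Hsf2 to -0.11 (TPM). Hspa2 between D and A turned to 0.02 (quantile), and the interaction of Hspa4 to 0.07 (TPM). With single libraries left out, Hspa2 (-0.14 to 0.03) and Hspa4l (-0.09 to 0.17) between D and A and the interaction of Hspa4 (-0.05 to 0.02) changed sign, none of them past the threshold. Leaving out the same libraries, the differences in the within-library shares kept their direction, the inducible share between C and B ranging from -4.36 to -2.19 points. Of the values of single genes, 1146 kept direction and side of the threshold, 32 described without a test moved by more than the spread, 6 of them with a change of sign, 18 others turned, 18 came below an adjusted p of 0.05 and 15 no longer did.

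Libraries of different groups share replicate numbers, and nothing in the labels says what a number stands for. Deviations from group means correlated with r from -0.171 to 0.579 over 18 same-numbered pairs, above 0.1 in 11 of them. All 3 pairs were above 0.1 for A with B (0.142 to 0.174), a comparison without a test here, but only 1 of 3 for C with D and 2 of 3 for both C with B and D with A, and not every library correlated best with its own number, so no pairing was assumed. With the replicate block the members called between C and D were again 7 and the partners 17, and Hspa8 (adjusted p = 0.00909) and Hspa4l (0.00771) between C and B, Hspa1b between D and A (0.0226) and the interactions of Hspa2 (0.0271) and Hspa4l (0.0260) came below an adjusted p of 0.05. Depth limits Hspa1a and Hspa1l without Cu/ES, at 0 to 2 reads per library, and Hspa1b there, at 53 to 149.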
